A study of Homo sapiens with 3 samples.

Results

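The TRIM genes encode a family of proteins named for a tripartite motif, in which a RING finger, 1 or more B-box zinc fingers and a coiled coil follow each other. The RING finger binds a ubiquitin-loaded E2 enzyme, which makes most members E3 ubiquitin ligases, and the domain after the coiled coil selects the substrate. Many members act in antiviral signalling and are induced by interferon, whereas others repress transcription, organise microtubules or control p53. The members described here are the genes whose symbol in the platform annotation is TRIM followed by a digit. The rule gave 61 of the 14884 genes named on the array, measured by 93 of its 53617 probe sets. A gene with several probe sets is represented by the one with the highest mean over the arrays, and a gene was kept when that mean reached 4.27, the median of the means of all probe sets. Of the 61 members 50 were kept.

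The data come from A549, a long-established line derived from a human lung tumour. Its cells received siNC (the control siRNA), siTAZ (which targets TAZ) or siYAP (which targets YAP). RNA extracted 48 h later was hybridised to Affymetrix whole-transcript arrays of 1 colour, with 1 array for each group. All 3 groups received the same lipid transfection reagent (Lipofectamine RNAiMAX). YAP and TAZ (genes YAP1 and WWTR1) are transcriptional co-activators at the end of the Hippo pathway. How many siRNAs were used for each target is not given in the sources used here. Each value is an RMA level, taken as log2. With 1 array a group there is no replicate, no error and no test for any value below, and each difference compares 2 arrays, not 2 conditions. Depth in reads does not apply to arrays, and their number limits the precision.

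The siRNA targets were lower in their own arrays. WWTR1 was at 6.50 in siNC, 5.81 in siTAZ and 6.50 in siYAP, and YAP1 at 8.45, 8.24 and 6.87, so the fold on the TAZ target was 1.61 and that on the YAP target 2.99. Of 6 epithelial markers 5 had a named probe set, led by KRT18 (11.6, 11.4 and 11.6 in siNC, siTAZ and siYAP) and EPCAM (8.23, 8.13 and 8.19). Their mean level was 7.85, 7.71 and 7.85. KRT7 was at 6.51, 6.10 and 6.51, 1.33-fold lower in siTAZ. None of the 3 genes listed as typical of A549 had one. Of 5 leukocyte markers 2 had a named probe set, and their mean level was 6.46, 6.74 and 6.78 in siNC, siTAZ and siYAP. CD68 was at 8.43, 9.001 and 9.02, and CD14, near the filter, was at 4.49, 4.49 and 4.55. Of 4 fibroblast markers 3 were named, with mean levels of 5.02, 5.19 and 5.18. LUM was at 7.45, 8.14 and 8.10, while THY1 was 5.22, 5.06 and 5.06 and DCN was below the filter on all arrays. The 2 named endothelial markers had mean levels of 4.01, 4.16 and 4.11. CD68 and LUM thus lay higher in both knockdown arrays, as did 6 TRIM genes described below at 1.2-fold, and their part in those values was not tested.

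The TRIM genes spanned most of the range of the array. The 61 levels ran from 2.03 to 9.63 in siNC, with a median of 5.61 on each of the 3 arrays. Among the kept members the medians were 5.88 in siNC, 5.90 in siTAZ and 5.94 in siYAP, against 6.21, 6.22 and 6.22 over all 10768 kept genes. RMA levels of different genes depend on their probes, so these figures do not order the mRNAs by abundance. The highest value belonged to TRIM28, the KRAB zinc-finger co-repressor also called KAP1, which read 9.63 on every array. The median difference of the kept members was 0 in siTAZ minus siNC, in siYAP minus siNC and in siYAP minus siTAZ, as was the median over all kept genes in each. Since 26 of 50 kept members in siTAZ and 29 of 50 in siYAP read the same as in the control array, a median of 0 says little, and the single members carry the differences.

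**Figure D1:**
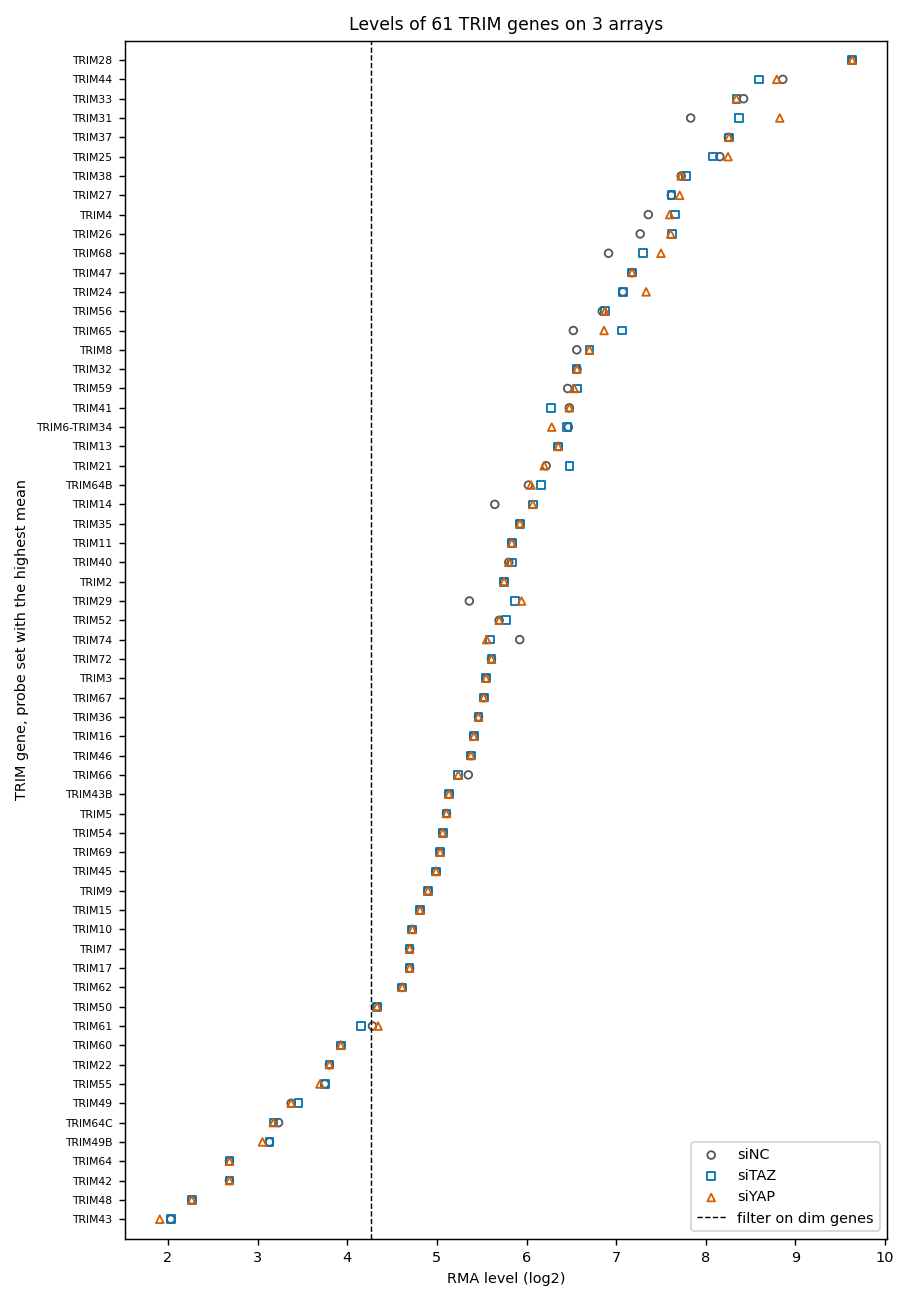
RMA levels (log2, horizontal axis) of the 61 TRIM genes (vertical axis, sorted by mean) on the siNC (circles), siTAZ (squares) and siYAP (triangles) arrays, with the filter at 4.27 as a dashed line. For 29 of the 61 genes the 3 symbols coincide, and TRIM31 has the widest spread, from 7.83 to 8.83.

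At a fold of 1.5 (0.585 on the log2 scale) few members stood out. In siTAZ minus siNC 0 of the 50 kept members were lower and 0 higher, where 1.02% and 0.762% of all kept genes were. In siYAP minus siNC 0 were lower, against 0.381% of all kept genes, and 2 were higher, or 4%, against 0.52%. They were TRIM31 and TRIM68. In siYAP minus siTAZ 0 were lower and 0 higher, against 0.176% and 0.566%.

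At a fold of 1.2 (0.263 on the log2 scale) the members that differed from the control array were mostly higher. In siTAZ minus siNC 7 of 50 were higher, or 14%, against 5.62% of all kept genes, and 2 were lower, or 4%, against 4.89%. In siYAP minus siNC 6 were higher, or 12%, against 4.05%, and 1 was lower, or 2%, against 3.15%. TRIM14, TRIM26, TRIM29, TRIM31, TRIM65 and TRIM68 were higher in both, and TRIM4 reached the fold in siTAZ. TRIM74 was lower in both and TRIM44 in siTAZ. Both comparisons subtract the same control array, so a value of that array alone that is low or high appears in both. A reference that averages siNC with the other knockdown array shrinks, by construction, a difference that both knockdowns share. That of TRIM14 went from 0.423 to 0.212 in both. It therefore cannot tell a shared difference from a low control value. With that reference 2 of 50 members were higher in siTAZ (TRIM21 and TRIM65), or 4%, near the 3.02% of all kept genes. In siYAP 3 were higher (TRIM29, TRIM31 and TRIM68), against 2.13%. With that reference 0 members were lower in either, against 3.49% and 1.49%. The direct comparison, siYAP minus siTAZ, does not use the siNC array. There 1 member was higher (TRIM31, against 3.19% of all kept genes) and 1 lower (TRIM21, against 2.15%).

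**Figure D2:**
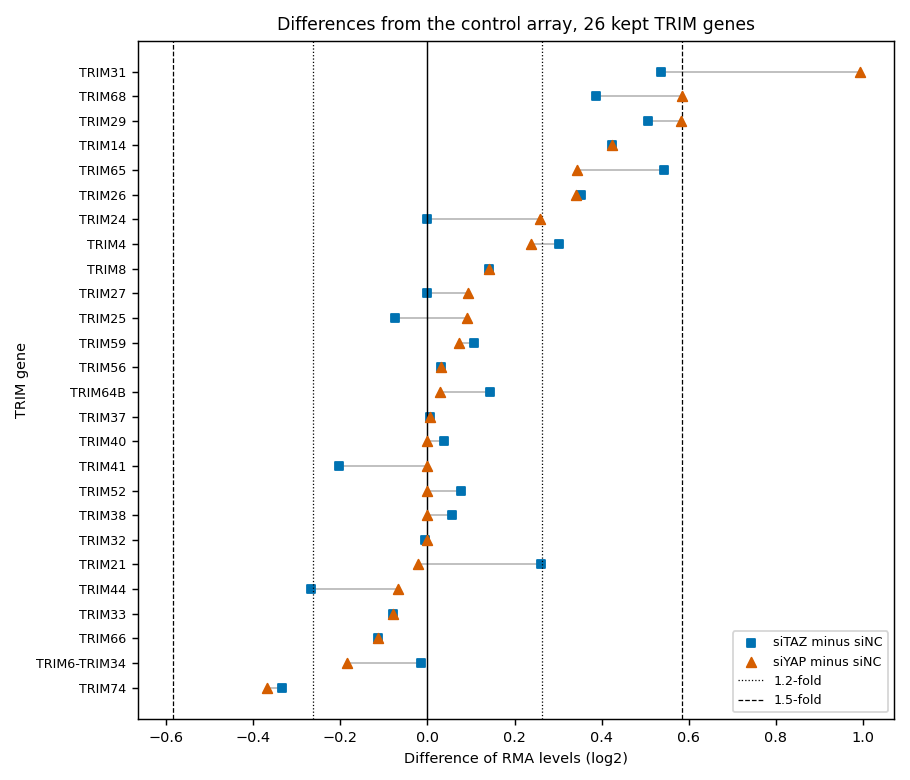
Difference from the siNC array (log2, horizontal axis) of the 26 kept TRIM genes whose 3 values were not identical, for siTAZ (squares) and siYAP (triangles). Dotted lines mark 1.2-fold and dashed lines 1.5-fold. TRIM31 reaches 0.99 in siYAP, and TRIM74 is lowest at -0.33 in siTAZ and -0.37 in siYAP.

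TRIM31 had the largest difference among the kept members, in siYAP minus siNC. It encodes a RING ligase with no known domain after the coiled coil, known for ubiquitinating the antiviral adaptor MAVS and the inflammasome sensor NLRP3. Its level was 7.83 in siNC, 8.37 in siTAZ and 8.83 in siYAP, lowest in the control array and highest in the YAP knockdown. It was 1.45-fold higher in siTAZ and 1.99-fold higher in siYAP than in siNC, and 1.37-fold higher in siYAP than in siTAZ. In siYAP minus siNC it ranked 9 from the highest among the 10768 kept genes. In siTAZ minus siNC it ranked 110 and in siYAP minus siTAZ 115. Set against the mean of the siNC and siYAP arrays, the siTAZ value was only 0.041 higher, since the siTAZ level lies between the others. Set against the mean of siNC and siTAZ, the siYAP value was 0.73 higher.

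All 5 probe sets of TRIM31 gave the same order of the arrays. Their levels ran from 7.23 to 7.85 in siNC, from 7.79 to 8.37 in siTAZ and from 8.24 to 8.83 in siYAP. The differences were 0.50 to 0.56 in siTAZ minus siNC, 0.94 to 1.02 in siYAP minus siNC and 0.44 to 0.46 in siYAP minus siTAZ. TRIM31 lies in the major histocompatibility complex on chromosome 6, for which alternative haplotypes exist in the genome assembly. Some of its differences recur between probe sets of different level. Its 2 probe sets with the highest means both gave 0.537436 in siTAZ minus siNC. Those with the highest and the lowest mean both gave 0.456351 in siYAP minus siTAZ. Whether its probe sets share probes was not tested, so the 5 are not taken as independent measurements. The other members with several probe sets lie in that complex or close by, with far smaller differences. TRIM27 had 8 probe sets with differences of 0 to 0.093 in siYAP minus siNC, TRIM40 had 8 with 0 to 0.038 in siTAZ minus siNC, and TRIM15 had 8 with 0 to 0.050 in siTAZ minus siNC. The 8 probe sets of TRIM10 were each identical on the 3 arrays, at 4.55 or 4.73. Identical rows recur among them: the 8 probe sets of TRIM10 hold 2 distinct sets of values, those of TRIM15 hold 3, those of TRIM40 hold 4 and those of TRIM27 hold 6.

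**Figure D3:**
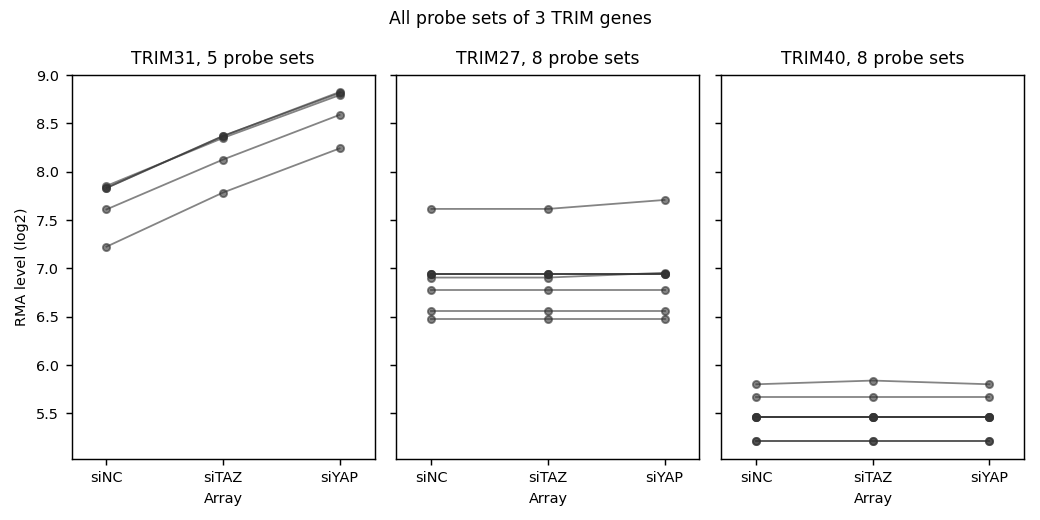
RMA level (log2, vertical axis) of every probe set of TRIM31 (5), TRIM27 (8) and TRIM40 (8) on the 3 arrays (horizontal axis), with a line for each probe set. All lines of TRIM31 climb from siNC to siYAP, whereas those of TRIM27 and TRIM40 are flat or nearly so.

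The promoter of TRIM31 is shown because this gene carries the largest difference from siNC, in siYAP, and that of TRIM68 because it is the other member at 1.5-fold. Those of TRIM14 and TRIM26 are shown because, on the list of interferon-inducible members used below, only these genes reached 1.2-fold against siNC. The windows of the other members of that list are not described singly. Whether a motif goes with a difference was not tested. Each run is the 250 bases before the start site in RefSeq, assembly GRCh38.p14, written 5′ to 3′ on the gene's strand, which is the minus strand for all 4. They lie at chr6:30113091-30113340 (TRIM31), chr11:4608232-4608481 (TRIM68), chr9:98119223-98119472 (TRIM14) and chr6:30213407-30213656 (TRIM26). Capitals mark matches to 3 motifs searched on both strands: the TEAD core GGAATG, the AP-1 site TGANTCA and the interferon regulatory factor (IRF) element core AANNGAAA, whose reverse complement is TTTCNNTT.
TRIM31: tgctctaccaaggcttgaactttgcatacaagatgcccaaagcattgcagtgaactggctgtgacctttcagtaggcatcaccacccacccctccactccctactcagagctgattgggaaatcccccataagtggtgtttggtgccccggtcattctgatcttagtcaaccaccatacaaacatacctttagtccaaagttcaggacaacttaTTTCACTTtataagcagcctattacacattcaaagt
TRIM68: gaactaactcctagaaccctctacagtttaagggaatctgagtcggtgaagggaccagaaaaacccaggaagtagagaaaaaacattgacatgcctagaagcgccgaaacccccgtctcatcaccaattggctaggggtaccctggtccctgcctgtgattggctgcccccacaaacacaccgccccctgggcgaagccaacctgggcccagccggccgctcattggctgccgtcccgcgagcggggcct
TRIM14: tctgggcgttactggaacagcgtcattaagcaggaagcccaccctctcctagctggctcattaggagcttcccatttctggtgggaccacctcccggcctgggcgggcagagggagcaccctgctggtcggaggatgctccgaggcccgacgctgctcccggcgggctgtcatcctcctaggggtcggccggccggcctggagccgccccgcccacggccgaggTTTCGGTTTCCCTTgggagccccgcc
TRIM26: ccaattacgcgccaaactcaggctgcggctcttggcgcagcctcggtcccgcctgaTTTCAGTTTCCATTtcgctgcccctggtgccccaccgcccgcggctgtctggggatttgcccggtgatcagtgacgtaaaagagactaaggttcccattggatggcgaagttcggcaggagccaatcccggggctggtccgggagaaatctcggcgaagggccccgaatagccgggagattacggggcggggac

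In these windows only the IRF core was found. TRIM31 had 1 match, starting 36 bases before the start site. TRIM14 and TRIM26 had 2 each, overlapping each other, and TRIM68 had 0. RefSeq windows were at hand for 7 of the 9 members at 1.2-fold from the control. Among the other 3 of these, TRIM44 had 1 match to each motif, TRIM74 had 1 TEAD core in 1 of its 2 windows, and TRIM65 had no match. Over the 55 windows of kept TRIM genes (39 genes) the IRF core was present in 20%, the TEAD core in 23.6% and the AP-1 site in 12.7%. Over all 35116 windows of the table the shares were 20.3%, 11.9% and 6.57%. In both sets a gene with several windows counts once for each, so the windows are not independent, and shares per gene were not computed. A match is a run of letters and not a bound site, and no match says nothing of the factor.

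TRIM68, TRIM65 and TRIM29 were also at least 1.2-fold higher in both knockdown arrays. TRIM68, a RING and SPRY ligase described as a co-activator of the androgen receptor, was at 6.91 in siNC, 7.30 in siTAZ and 7.50 in siYAP. It was 1.31-fold higher in siTAZ, and in siYAP its difference of 0.5854 only just passed the 1.5-fold threshold. After a new quantile normalization it was 0.57, under 1.5-fold. TRIM65, a ligase known to ubiquitinate the RNA sensor MDA5, was at 6.52, 7.07 and 6.86 in siNC, siTAZ and siYAP. It was 1.46-fold higher in siTAZ and 1.27-fold higher in siYAP, the reverse order of TRIM31 and TRIM68. TRIM29, which lacks a RING finger and binds p53, was at 5.36, 5.87 and 5.94. It was 1.42-fold higher in siTAZ, and in siYAP its difference of 0.58 (1.497-fold) lay just under the 1.5-fold threshold.

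The list of interferon-inducible members was TRIM5, TRIM14, TRIM21, TRIM22, TRIM25, TRIM26, TRIM34, TRIM38 and TRIM69. Of the 9, 8 had a named probe set and 7 were kept, with a median difference of 0.055 in siTAZ and 0 in siYAP. At 1.2-fold 2 of the 7 were higher in each comparison with the control, where 5.62% (siTAZ) and 4.05% (siYAP) of all kept genes were, and 0 were lower, against 4.89% and 3.15%. The 2 were TRIM14 and TRIM26. TRIM14, a RING-less adaptor of MAVS at mitochondria, was at 5.65 in siNC and at the identical value of 6.07 in both knockdown arrays, 1.34-fold higher. TRIM26, a ligase that acts on IRF3, was at 7.27 in siNC, 7.62 in siTAZ and 7.61 in siYAP, 1.28-fold and 1.27-fold higher. For both genes the control array was the low one and the knockdown arrays were alike. Equal values in the 2 knockdown arrays were common: 30 of the 50 kept members (60%) had them, and 53.9% of all kept genes.

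The other members of that list were under 1.2-fold against the control. TRIM21, the cytosolic antibody receptor also known as Ro52, was at 6.22 in siNC, 6.48 in siTAZ and 6.20 in siYAP. Its siTAZ value stood alone, 0.261 above siNC, just under 1.2-fold, and 1.22-fold above siYAP. TRIM25, the ligase of the RNA sensor RIG-I, was at 8.16, 8.08 and 8.25, with a difference of -0.074 from the control in siTAZ and of 0.091 in siYAP. TRIM38 was 7.73, 7.78 and 7.73. TRIM5 and TRIM69 were identical on the 3 arrays at 5.11 and 5.04, and TRIM22, at 3.80 on each, was below the filter. TRIM5 and TRIM22 are known for restricting retroviruses. The signal of the readthrough locus TRIM6-TRIM34, which may come from TRIM6, TRIM34 or both, was at 6.47, 6.45 and 6.28.

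TRIM4, another ligase of RIG-I, was at 7.36 in siNC, 7.66 in siTAZ and 7.60 in siYAP. It was 1.23-fold higher in siTAZ and, at 1.18-fold, just under the threshold in siYAP. TRIM24, a PHD and bromodomain protein that promotes the degradation of p53, was at 7.08 in siNC and siTAZ, identically, and at 7.33 in siYAP, a difference of 0.259 that was just under 1.2-fold.

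Fewer members were lower than in the control array. TRIM44, which has a deubiquitinase-type zinc finger in place of the RING, was at 8.86 in siNC, 8.59 in siTAZ and 8.79 in siYAP. It was 1.203-fold lower in siTAZ, at the threshold, with a difference of -0.067 in siYAP. TRIM74 was at 5.92 in siNC, 5.59 in siTAZ and 5.56 in siYAP, 1.26-fold and 1.29-fold lower. TRIM74 has a near-identical copy, TRIM73, and is related to TRIM50, so its signal may come from more than 1 gene. The same uncertainty holds for the TRIM43, TRIM49 and TRIM64 genes, which are multicopy. TRIM41 was at 6.48, 6.27 and 6.48, with a difference of -0.20 in siTAZ, short of the threshold.

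Several members with high values hardly differed between the arrays. TRIM33, a PHD and bromodomain protein that binds SMAD proteins, was at 8.42 in siNC and 8.34 in both knockdown arrays. TRIM37, a centrosomal and peroxisomal ligase, was at 8.25, 8.26 and 8.26. TRIM27 was 7.62 in siNC and siTAZ and 7.71 in siYAP. TRIM28 was identical on all arrays, while CBX5, which encodes the heterochromatin protein HP1 alpha recruited by TRIM28, was at 8.37 in siNC, 7.33 in siTAZ and 8.07 in siYAP, 2.05-fold lower in siTAZ. Of the 11 listed partners of TRIM28 in gene silencing 9 were kept. CBX5 was the only one at 1.2-fold in any comparison with the control, lower in both.

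**Figure D4:**
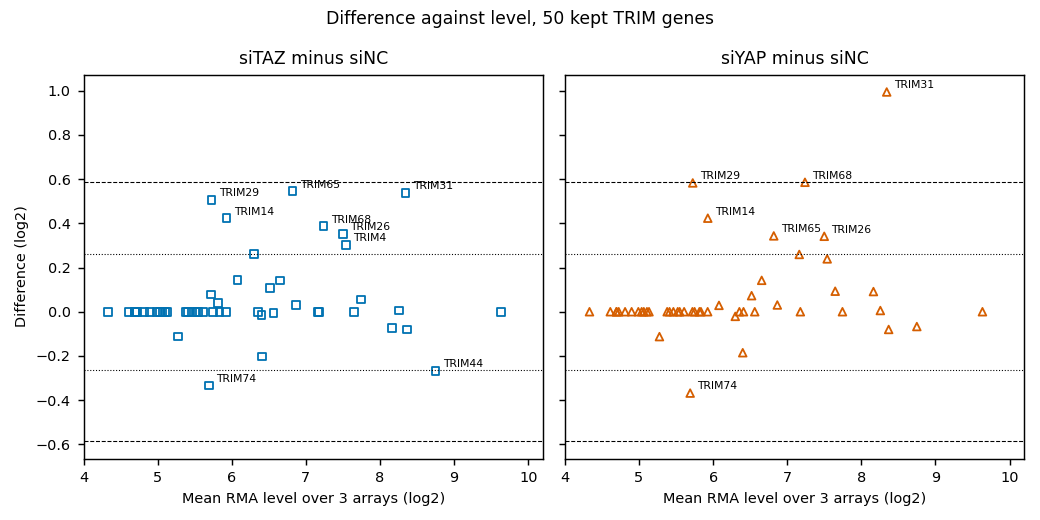
Difference from the siNC array (log2, vertical axis) against the mean RMA level over the 3 arrays (log2, horizontal axis) for the 50 kept TRIM genes, siTAZ on the left and siYAP on the right. Dotted lines mark 1.2-fold and dashed lines 1.5-fold, and named genes lie past 1.2-fold. Among the dimmest members nearly all differences are 0.

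Many members had exactly the same value on the 3 arrays. This held for 24 of the 50 kept members, or 48%, and for 41.1% of all kept genes. Among the 25 kept members with the lower means (4.33 to 5.84) 20 were identical, and among the 25 with the higher means (5.93 to 9.63) 4 were. A value that does not move between arrays is a property of the deposited table, and whether the mRNA differed cannot be read from it.

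The members were also grouped by the domains after the coiled coil. Most classes kept 1 to 4 members, too few to set against the 5.62% and 4.05% of all kept genes that were at least 1.2-fold higher in siTAZ and siYAP. The SPRY class (C-IV in the usual scheme), the largest, had 31 members on the array and 23 kept. Of these 4 were at least 1.2-fold higher in siTAZ (TRIM4, TRIM26, TRIM65 and TRIM68) and 3 in siYAP. In this class 0 were lower in either, against 4.89% (siTAZ) and 3.15% (siYAP) of all kept genes. On all arrays 13 of the 23 were identical, where 41.1% of all kept genes were. Class C-V, with no known domain at that place, had 6 kept members, of which TRIM31 was higher and TRIM74 lower in both. Its other kept members were TRIM8, a regulator of TAK1 signalling (6.56, then 6.70 in both knockdowns), TRIM56, TRIM40 and TRIM52. Of the 4 members classed here as lacking a RING, TRIM14 and TRIM29 were higher in both knockdown arrays, TRIM44 was lower in siTAZ, and TRIM16 was identical at 5.41. Of the microtubule-associated class C-I the 4 genes with TRIM symbols (TRIM9, TRIM36, TRIM46 and TRIM67) were identical on the 3 arrays, at 4.90 to 5.52. All 4 were among the 25 kept members with the lower means, of which 20 were identical. MID1 and MID2 belong to the same class under other symbols and were not identical, as given below. None of the 4 PHD and bromodomain members and none of the 3 kept members with NHL repeats (TRIM2, TRIM3 and TRIM32) reached 1.2-fold against the control.

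In the order of protein-coding genes in RefSeq, TRIM31, TRIM40, TRIM10, TRIM15 and TRIM26 follow each other on chromosome 6 with 0 genes between them. Only the ends of this run, TRIM31 and TRIM26, were at least 1.2-fold higher in the knockdown arrays. By the probe set with the highest mean, the 3 genes between them were identical or within 0.038 of the control. These 3 were among the 25 kept members with the lower means, of which 20 were identical, and TRIM31 and TRIM26 were not. TRIM47 and TRIM65 are adjacent on chromosome 17, and TRIM47 was identical at 7.18 on all arrays while TRIM65 was higher by 0.54 in siTAZ and by 0.34 in siYAP. TRIM11 and TRIM17, adjacent on chromosome 1 and also among the 25 with the lower means, were identical on the 3 arrays.

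Other families of the ubiquitin system gave a frame for these counts. Of all kept genes 5.62% were at least 1.2-fold higher in siTAZ and 4.05% in siYAP, with 4.89% and 3.15% lower. Of 63 kept RING finger genes with an RNF symbol 3 were higher in siTAZ (4.76%) and 3 in siYAP (4.76%). Lower were 3 in siTAZ (4.76%) and 1 in siYAP (1.59%). Of 51 kept F-box genes 2 were higher in siTAZ (3.92%) and 1 in siYAP (1.96%), with 4 (7.84%) and 2 (3.92%) lower. Of 28 kept E1 and E2 genes 0 were higher in either, 4 were lower in siTAZ (14.3%) and 0 were lower in siYAP. The TRIM genes had the larger share of higher members in both comparisons with the control (14% and 12%), and with 1 array a group no test of these differences was possible.

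**Figure D5:**
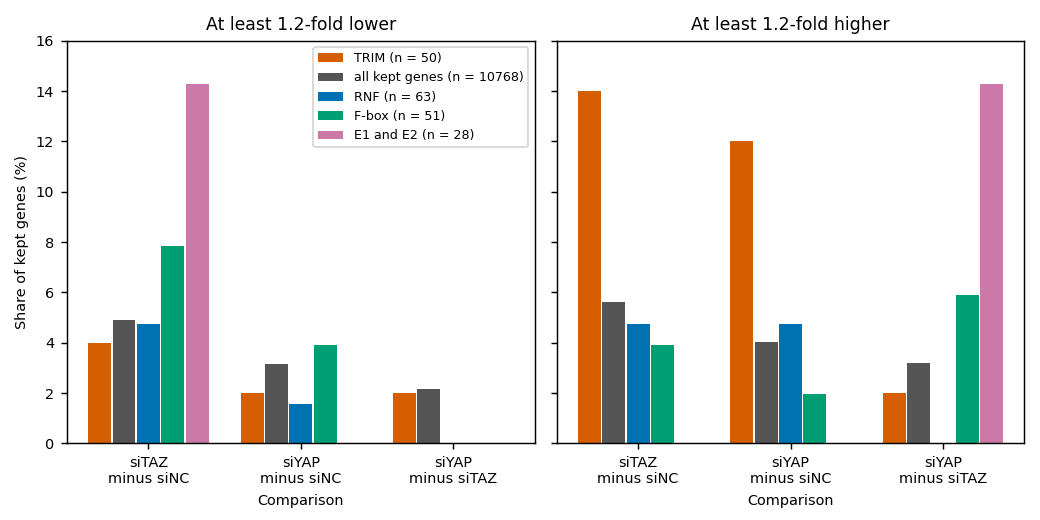
Share of kept genes (%, vertical axis) at least 1.2-fold lower (left) and higher (right) in the 3 comparisons (horizontal axis), for TRIM genes, all kept genes, RNF genes, F-box genes and E1 and E2 genes. TRIM genes stand at 14% and 12% among the higher genes against siNC, where all kept genes stand at 5.62% and 4.05%.

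Genes that work with the TRIM proteins mostly stayed near the control, as did the kept genes at large. Of all kept genes 48.5% were identical in siTAZ and siNC. At 1.2-fold 4.89% were lower and 5.62% higher in siTAZ, and 3.15% and 4.05% in siYAP. Of 14 listed E2 enzymes and E2 variants 9 were kept, and 5 of these were identical in siTAZ and siNC. UBE2V1, the partner of UBE2N in making lysine-63-linked chains, was the only one at 1.2-fold, at 9.33 in siNC, 8.85 in siTAZ and 9.25 in siYAP. Of 22 listed innate signalling genes 17 were kept, with a median of 0 in both comparisons. Among them IFIH1, which encodes the TRIM65 substrate MDA5, was at 4.88 in siNC, 5.56 in siTAZ and 5.50 in siYAP, 1.61-fold and 1.54-fold higher from a dim control level. It was the only one at 1.2-fold. RIGI, the substrate of TRIM25 and TRIM4, was at 7.39, 7.15 and 7.14, with a difference of -0.25 in both, short of that fold. MAVS, on which TRIM31 and TRIM14 act, was at 8.47, 8.62 and 8.50.

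Proteins of the TRIM family with other symbols were listed separately, and 4 of these 7 genes were kept. MID1, a microtubule-associated ligase, was at 9.88 in siNC, 9.44 in siTAZ and 9.62 in siYAP, 1.36-fold lower in siTAZ. MID2, its paralogue, was at 7.62, 7.53 and 7.57, and PML, the scaffold of nuclear bodies, was identical at 5.05. TRIML2 was at 5.43, 5.94 and 5.41, 1.43-fold higher than the control in siTAZ, with a difference of -0.023 in siYAP.

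The 11 members below the filter were TRIM22, TRIM42, TRIM43, TRIM48, TRIM49, TRIM49B, TRIM55, TRIM60, TRIM61, TRIM64 and TRIM64C. Among them 5 were identical on the 3 arrays, and none differed by 1.2-fold between any 2 arrays. The widest difference was that of TRIM61, at 4.28 in siNC, 4.15 in siTAZ and 4.34 in siYAP.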

How the data were processed

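RNA of 3 A549 samples was measured on 1 array each. The authors made the values with RMA, per the submitters' processing notes, and deposited 1 value for each of 53617 probe sets. The values deposited by the authors have no named scale and were taken as log2, since they span 0.961 to 13.5 and the arrays have similar quartiles. RMA includes quantile normalization, so values show levels within an array and not RNA per cell. The version of RMA is not given in the sources used here, nor is the build behind the annotation.

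Symbols came from the platform's annotation, which gives 1 symbol for 16098 probe sets and several for 0. All 16098 Entrez identifiers were found in RefSeq (GRCh38.p14), and 0 symbols changed. Of 77 protein-coding TRIM genes in RefSeq 61 had a named probe set, and the other 16 were not analysed here. Differences are of log2 values, counted at 1.5-fold and 1.2-fold. Named genes were TRIM31, kept members at 1.2-fold in any comparison, the 10 kept members with the highest means and members with several probe sets, with up to 2 examples per class. Genes just under a threshold, neighbours and others outside that rule were named after their values were seen. The members and lists were chosen with earlier results of these data known. Alternatives changed the filter (none, or the 75th percentile), the scaling (median shift, loess with span 0.4, or repeated quantile normalization), the probe sets (mean of all per gene) and the reference (siNC averaged with the other knockdown). Leaving out genes identical on the 3 arrays was chosen after seeing the data. Counting was tested on simulated data. Scripts used Python 3.11.15 and pandas 2.3.3.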

Additional observations from a re-analysis of the deposited data

Results flagged for a closer look

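In 3 of the 61 members the knockdown arrays lay on opposite sides of the control array. TRIM21 differed from siNC by 0.261 in the siTAZ array and by -0.021 in the siYAP array. TRIM25 differed by -0.074 in the siTAZ array and by 0.091 in the siYAP array. TRIM61, below the filter on dim genes, differed by -0.13 in the siTAZ array and by 0.062 in the siYAP array. Each value rests on 1 array per group, both comparisons share the control array, and the difference between them was not tested.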

How the results depend on the processing

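Of the counts, medians and TRIM31 differences, those not given here stayed within 1.5 times (counts) or 0.1 on the log2 scale (differences) under every alternative run. The filter at the 75th percentile drops TRIM29 and TRIM74, among others. By mean level TRIM40, at rank 27 of the kept members, passes it and TRIM29, at rank 29, does not. That leaves 27 or 28 members. Of these 1 was at least 1.2-fold lower in siTAZ, where 6.43% of all kept genes were, and 0 in siYAP, where 3.99% were. At least 1.2-fold higher were 6 of the 27 or 28 in siTAZ, where 7.74% of all kept genes were. In siYAP 5 of them were, where 5.3% of all kept genes were. With a new quantile normalization 1 member, TRIM31, was at least 1.5-fold higher in siYAP minus siNC, against 0.483% of all kept genes. In siYAP minus siTAZ 2, TRIM24 and TRIM31, were at least 1.2-fold higher, against 3.15%. The reference array mattered most. Averaging siNC with the other knockdown shrinks, by construction, a difference that both knockdowns share. With the mean of siNC and the other knockdown as reference, 2 of 50 members were at least 1.2-fold higher in siTAZ, near the 3.02% of all kept genes, and 0 lower (3.49%). In siYAP 3 were higher (2.13%), of which 1 was at least 1.5-fold higher, and 0 lower (1.49%). TRIM31 then differed by 0.041 in siTAZ and by 0.73 in siYAP. Of 393 values of the other named members 16, in 9 genes, moved by 0.1 or more, all with that reference, and 0 changed sign from a difference of 1.2-fold or more. No paired analysis was possible because each group has 1 array, and no replicate could be left out. The loess alternative and the median shift changed no count by over 1.5 times. Dim members limit what can be seen, since most of them read the same on every array.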
